A study of Drosophila melanogaster with 2 samples.

Results

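The nucleoporin genes of Drosophila melanogaster were examined for binding of the tagged protein CG3032-eGFP at their promoters. Genes were taken by symbol from the protein-coding genes of the Ensembl annotation of BDGP6 (the dm6 sequence): every symbol beginning with Nup and a digit, and Elys, Gp210, Ndc1, Sec13, Rae1 and mbo. The rule found 27 genes of 13968. It also asked for Mtor, which matched no symbol, because the basket gene megator is called Mgtor in this annotation; its values are given apart. Binding was measured by ChIP-seq, in which chromatin was precipitated with an antibody to GFP and the recovered DNA was sequenced. All animals belonged to 1 transgenic line, which stably expressed CG3032 with GFP at its C-terminus, and the labels do not state which promoter drove the fusion gene. Whole prepupae of 24 hours, males and females together, made up 1 group of 2 biological replicates, numbered 2 and 3. A summit therefore gives no cell type, no untagged or younger group was compared, and no test between conditions was possible.

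The nuclear pore complex is the channel through which proteins and RNA cross the nuclear envelope. Its scaffold is built from an outer ring, whose Y-shaped subunit is assembled around Nup107 and Nup160, and an inner ring around Nup93 and Nup205. Nucleoporins rich in phenylalanine-glycine repeats fill the central channel, membrane proteins anchor the pore in the envelope, and further proteins form filaments on the cytoplasmic side and a basket on the nuclear side. Elys starts pore assembly on chromatin after mitosis, and several nucleoporins of flies also bind chromatin inside the nucleus.

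The genes differed by their place in the pore. Of the 10 outer ring genes, 8 had a promoter summit in the list of reproducible peaks (80%, exact 95% interval 44.4 to 97.5%), against 1 of the 17 other nucleoporin genes (5.88%, 0.149 to 28.7%). Among all protein-coding genes the share was 26.9%. The outer ring genes with such a summit were Elys, Nup107, Nup133, Nup37, Nup43, Nup44A, Nup98-96 and Sec13, and the other gene was Nup93-2 of the inner ring. Taken as one list, 9 of 27 nucleoporin genes had one (33.3%, 16.5 to 54%), a share whose interval holds the 26.9% of all genes. The reproducible peaks are those that passed the authors' threshold on the irreproducible discovery rate (IDR), a measure of how well peak ranks repeat between replicates. A promoter summit is the highest point of a peak within 500 bp of any annotated transcription start site (TSS) of the gene. Intervals (Clopper-Pearson) cover counting error over genes, and the difference between the gene groups was not tested. The genes were chosen with earlier results of these data known. The comparison of the outer ring with all other nucleoporin genes was not planned and was added after the data were seen.

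The DNA at the summits is shown for the 6 genes with the strongest IDR promoter summits among those whose 61-bp window, centred on the summit, touched no annotated UTR; Nup44A was left out by its chromosome arm, and its summit was weaker than those shown. Nup160 is added because its summits occurred in both replicates and in no pooled list; it was chosen after its values were seen, and its window is centred on the replicate 3 summit. Each window is written 5′ to 3′ on the strand of the gene, from the RefSeq copy of the assembly. In Nup37 (chr3R:25247517-25247577, plus strand) and Nup133 (chr3R:22690468-22690528, plus) the capitals mark the words CAGCTG and TATAAA. In Nup93-2 (chr3R:14898446-14898506, minus), Sec13 (chr3R:23356212-23356272, plus), Nup43 (chr3R:18366458-18366518, plus), Nup107 (chr2L:10736178-10736238, minus) and Nup160 (chr2L:11123674-11123734, plus) none of the words searched lay in the window, and the capital marks the summit base.
Nup37: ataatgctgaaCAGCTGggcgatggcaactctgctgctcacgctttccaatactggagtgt
Nup133: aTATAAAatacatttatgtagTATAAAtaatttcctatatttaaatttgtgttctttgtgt
Nup93-2: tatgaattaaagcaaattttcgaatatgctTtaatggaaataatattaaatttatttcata
Sec13: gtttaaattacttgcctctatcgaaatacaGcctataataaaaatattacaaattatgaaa
Nup43: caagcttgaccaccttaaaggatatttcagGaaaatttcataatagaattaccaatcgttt
Nup107: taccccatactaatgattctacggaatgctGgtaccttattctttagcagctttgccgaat
Nup160: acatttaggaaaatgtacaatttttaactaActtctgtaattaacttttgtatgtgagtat

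The windows ranged in base composition. A and T made up 83.6% of the bases at Nup133 and at Nup93-2, 77% at Sec13 and at Nup160, 68.9% at Nup43, 59% at Nup107 and 49.2% at Nup37, the gene with the strongest summit. Over 100 bp to either side, the 11 promoter summits of the nucleoporin genes had a median A+T content of 65.2% (range 52.2 to 80.6%), beside 65.7% over all 3068 IDR promoter summits.

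The 4 deposited peak lists were used as the authors made them. Each replicate's list and a whole-series list, called on both replicates together, held 30000 peaks, and the IDR list held 8170. Signal is the authors' value per peak, on a scale that no file header defines, and the lists were normalized separately, so ranks (1 is the strongest) are set side by side across lists. Median signal was 29.4 in replicate 2, 52.3 in replicate 3 and 301 in the IDR list. No read counts were given, so depth is unknown. To set both replicates against the IDR list at equal length, the 8170 strongest peaks of each were also used and are called its top peaks.

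Nup37, a small subunit of the outer ring, had the strongest promoter summit of the family. Its IDR summit at 3R:25247547 had a signal of 921 and rank 985, and lay at −111 bp (negative values are upstream of the TSS). This summit lay nearer to the TSS of the ribosomal protein gene RpS27, at −33 bp. The same summit had rank 919 in replicate 2, with a signal of 328, and rank 1033 in replicate 3, with a signal of 602. The summit thus stood at nearly the same place in the order of both replicates. A second IDR summit at 3R:25247751, +93 bp, had a signal of 303 and rank 4061, and ranks of 4114 and 3476 in replicates 2 and 3.

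Nup133 and Nup98-96 followed. Nup133, at the base of the Y complex, had its IDR summit at 3R:22690498 (−109 bp) with a signal of 691 and rank 1541. It ranked higher in replicate 2 (rank 1197, signal 279) than in replicate 3 (rank 1916, signal 399). Nup98-96 encodes a precursor that is cut into the channel protein Nup98 and the outer ring protein Nup96, and it is counted here once, with the outer ring. Its summit at 3R:23781597 had a signal of 674 and rank 1594, ranks of 998 in replicate 2 and 2121 in replicate 3, and signals there of 311 and 369. It was the one strongest IDR summit of a nucleoporin gene that lay downstream of the nearest TSS, at +24 bp.

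Sec13, which serves both the outer ring and the COPII vesicle coat, had 2 IDR summits close to its start. The promoter summit at 3R:23356242 (−36 bp) had a signal of 389 and rank 3151, with rank 3419 in replicate 2 (signal 123) and rank 3326 in replicate 3 (signal 250.2). The other lay in an intron at 3R:23357108, 545 bp downstream of its nearest TSS and so just outside the promoter window. With a signal of 678 and rank 1581 it was stronger than the promoter summit in the IDR list, and its ranks of 1803 in replicate 2 and 1694 in replicate 3 were higher as well.

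Elys, Nup43 and Nup107 had weaker summits whose order differed more between the replicates. Elys, the chromatin-binding nucleoporin, had its IDR summit at X:19652155 (−150 bp) with a signal of 268 and rank 4633, against rank 3323 in replicate 2 (signal 126) and 5963 in replicate 3 (signal 145). The summit of Nup43, a further small outer ring subunit, at 3R:18366488 (−150 bp) also had a signal of 268, with rank 4644 in the IDR list, 2774 in replicate 2 (signal 146) and 6819 in replicate 3 (signal 127). Nup107, a core subunit of the Y complex, had a summit at 2L:10736208 (−137 bp) with a signal of 189.5 and rank 6590. In replicate 3 the Nup107 summit ranked 8087 (signal 107), near the end of the top peaks, and in replicate 2 it ranked 6145 (signal 70.2). All 3 ranked higher in replicate 2 than in replicate 3.

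Nup44A, the fly Seh1, was the weakest of the 9 and the one that the replicates did not share. Its IDR summit at 2R:7989827 had a signal of 169 and rank 7332, and lay −32 bp from the most downstream of its 3 start sites. The nearest replicate 2 summit was 208 bp away with rank 8077 (signal 52.9), and replicate 3 had no summit within 500 bp of the IDR summit. The replicate 3 list did hold a summit near another start of the gene, at 2R:7988588, with rank 29935 and a signal of 19.9. For the family as a whole, 10 of 11 IDR promoter summits (90.9%) lay within 100 bp of a summit in both replicate lists, beside 88% of all 3068. The IDR list was made from these lists, so this match is partly built in.

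The remaining outer ring genes were Nup160 and Nup75. Nup160, which forms an arm of the Y complex, had summits in both replicates: at 2L:11123689 in replicate 2 (−88 bp, signal 175, rank 2210) and at 2L:11123704 in replicate 3 (−73 bp, signal 305, rank 2638). These are higher ranks than those of Nup43, Nup107 or Nup44A in replicate 3, and lie among the top peaks of both. Yet the whole-series list held no summit there, and so the IDR list had none; the nearest whole-series summits were 16964 bp upstream and 6883 bp downstream of the Nup160 TSS. This was rare. Of 2965 protein-coding genes with a top promoter summit in both replicates, 2918 had an IDR promoter summit and 12 had no whole-series promoter summit, Nup160 and its neighbour Csl4 among them. Of 5867 summit pairs matched between the replicates' top peaks, 16 had no whole-series summit within 500 bp. Why the pooled list lacks the summit was not tested. Nup75, the counterpart of vertebrate Nup85, had no summit in replicate 2, a rank 14448 summit in replicate 3 (signal 54.9, −48 bp) and a whole-series rank of 21798 (signal 44.9, +235 bp).

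**Figure D1:**
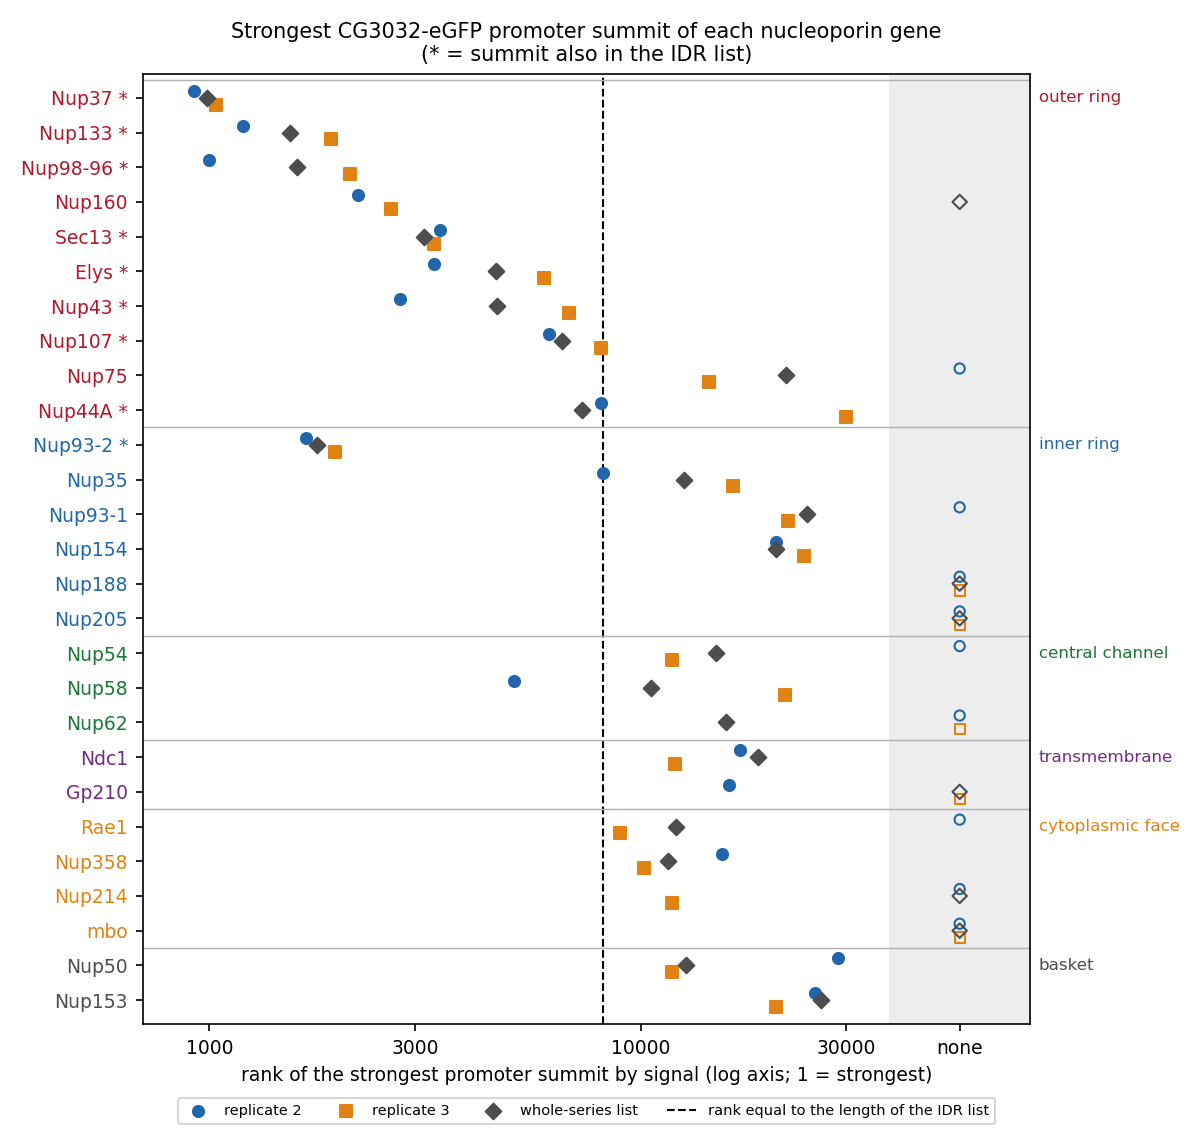
Rank of the strongest promoter summit of each of the 27 nucleoporin genes in replicate 2, replicate 3 and the whole-series list (log axis, 1 is strongest; open symbols mark lists with no summit; genes grouped by place in the pore; a star marks a summit also in the IDR list). Outer ring genes and Nup93-2 lie left of the dashed line at rank 8170 apart from Nup75, the replicate 3 value of Nup44A and the empty whole-series place of Nup160, while most other genes lie to its right or have no summit.

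The replicates were then read without the pooled lists. A top promoter summit in replicate 2 was found for 11 nucleoporin genes (40.7%, against 27.7% of all genes) and in replicate 3 for 9 (33.3%, against 26.6%). In replicate 2 these were 9 of 10 outer ring genes, Nup93-2 and the channel gene Nup58, and in replicate 3 they were 8 of 10 outer ring genes and Nup93-2. In both replicates at once, 9 of 27 nucleoporin genes had a top promoter summit, against 21.2% of all genes: the 7 outer ring genes with matched IDR summits, Nup160 and Nup93-2. The split by place in the pore was thus seen in the top peaks of each replicate. The IDR list was made from these replicates, so this match is partly built in, and the comparison was not planned.

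In the inner ring 1 of 6 genes had an IDR promoter summit, and that gene has a close relative without one. Nup93-2, 1 of the fly's 2 Nup93 genes, had its stronger IDR summit at 3R:14898476 (−104 bp) with a signal of 622, rank 1774, and ranks of 1673 (signal 218) and 1956 (signal 391) in replicates 2 and 3. Its second IDR summit at 3R:14898690 (−318 bp) had a signal of 293 and rank 4213, with ranks of 2822 and 3217. Nup93-1 had no summit in replicate 2, rank 22021 in replicate 3 (signal 31.1) and rank 24271 in the whole-series list (signal 39.1, +33 bp). The paralogs thus differed widely in rank, with Nup93-2 among the strongest summits of the family and Nup93-1 among the weakest. Nup35, a linker of the inner ring, had a whole-series summit of rank 12628 (signal 90.5, −94 bp). Its strongest summits had ranks of 8199 in replicate 2 (−189 bp) and 16356 in replicate 3 (−10 bp). Nup154, the fly Nup155, had rank 20644 in the whole-series list and rank 23922 in replicate 3, both at −79 bp. The replicate 2 summit of Nup154, of rank 20599, lay elsewhere, at −406 bp. Nup188 and Nup205, the large inner ring scaffold proteins, had no promoter summit in any list.

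No IDR promoter summit was found at the other 11 genes, and Nup58 was the one gene among them with a top promoter summit in a replicate. In the central channel, Nup58 had whole-series rank 10584 (signal 113, −329 bp), the highest whole-series signal of a nucleoporin gene outside the IDR list. The strongest Nup58 promoter summit had rank 5089 in replicate 2 (−327 bp) and rank 21679 in replicate 3, there at another place (−24 bp). Nup54 had whole-series rank 14984 (signal 73.2) and a summit in replicate 3 (rank 11846) but none in replicate 2. Nup62, which gives its name to the channel subcomplex, had a whole-series summit of rank 15790 (signal 68) and none in either replicate list.

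The transmembrane gene Ndc1 had whole-series rank 18771 (signal 54.3, −27 bp) and rank 12015 in replicate 3 (−30 bp). The replicate 2 summit of Ndc1, of rank 17047, was a different one at +417 bp. Gp210, the other membrane anchor, had a summit in replicate 2 alone (rank 16081, signal 28). On the cytoplasmic face, Rae1, an mRNA export factor that binds Nup98, had rank 8972 in replicate 3 (signal 95.8), no summit in replicate 2 and whole-series rank 12109 (signal 95.7, +5 bp). Nup358, the Ran-binding filament protein, had whole-series rank 11566 (signal 101, −21 bp) and ranks of 15484 and 10213 in replicates 2 and 3. These genes lay between the IDR list and the end of the lists, with no rank among the top peaks. Nup214, a filament protein, had a summit in replicate 3 alone (rank 11837, signal 70.1), and mbo, the fly Nup88, had none in any list.

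Both basket genes among the 27 had weak promoter summits, and Nup153 had a strong summit inside the gene. The basket gene Mgtor, outside the 27, is given below. Nup50, an importin-binding protein, had whole-series rank 12725 (signal 89.7, −91 bp) and rank 11820 in replicate 3 (−55 bp). The strongest replicate 2 summit of Nup50, of rank 28735, lay elsewhere, at +415 bp. The promoter summit of Nup153, a docking site for import receptors, had whole-series rank 26158 (signal 35.4, −423 bp) and rank 25429 in replicate 2 (−424 bp). The replicate 3 promoter summit, of rank 20662, was a different one at +80 bp. The IDR summit of Nup153 at X:16600010 lay in the 5′ UTR, 769 bp downstream of the TSS, with a signal of 858 and rank 1112. It ranked 3544 in replicate 2 (signal 119) and 693 in replicate 3 (signal 753), so its place differed more between the replicates than that of Nup37, which had a similar IDR signal. Nup153 and Sec13 were the 2 nucleoporin genes of 27 with an IDR summit inside the gene and over 500 bp from its start sites, beside 10.1% of all protein-coding genes.

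The longer lists held summits at most of the family. In the whole-series list 21 of 27 genes had a promoter summit (77.8%, 57.7 to 91.4%), against 49.1% of all protein-coding genes. There, 9 of 10 outer ring genes and 12 of 17 others had one, with a median signal of 268 for the former and 81.4 for the latter. Over all protein-coding genes with such a summit the median was 169, with quartiles of 92 and 369. The full replicate lists gave 18 of 27 genes in replicate 2 (66.7%, against 48.5% of all genes) and 22 of 27 in replicate 3 (81.5%, against 50.2%). In replicate 2 these were 9 of 10 outer ring genes (90%) and 9 of 17 others (52.9%), and in replicate 3 all 10 and 12 of 17 (70.6%). These counts include summits with a low −log10 q-value, the deposited measure of significance. In replicate 2 it was 0.568 at Gp210, 0.493 at Ndc1, 0.15 at Nup153, 0.293 at Nup154, 0.623 at Nup358 and 0.0903 at Nup50. In replicate 3 it was 0.609 at Nup44A, and in the whole-series list 0.407 at Nup153, 0.495 at Nup93-1, 0.674 at Nup75 and 0.781 at Nup154. The shares of all genes count such summits in the same way. The last IDR nucleoporin gene by signal was Nup44A at 169, and the list ended at 151. The IDR summits nearest to the 500 bp limit were that of Nup93-2 at −318 bp inside it, and outside it those of Sec13 at +545 bp, described above, Nup154 at −697 bp (rank 5313, at the ribosomal protein gene RpL9), Nup153 at +769 bp and Nup35 at −987 bp (rank 4136, at Rip11).

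The strongest IDR promoter summits of the 9 genes lay at a median of −109 bp from the nearest TSS, within a range of −150 to +24 bp. Over all 3763 genes with one the median was −138 bp, within a range of −500 to +500 bp. Of the 9, 8 (88.9%) lay upstream, beside 86.2% of all. Their median signal of 389 (169 to 921) lay within the middle of the distribution over all genes, whose median was 336 and whose quartiles were 213 and 635. Where a nucleoporin gene had an IDR summit, the summit was thus close to the usual position and strength.

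**Figure D2:**
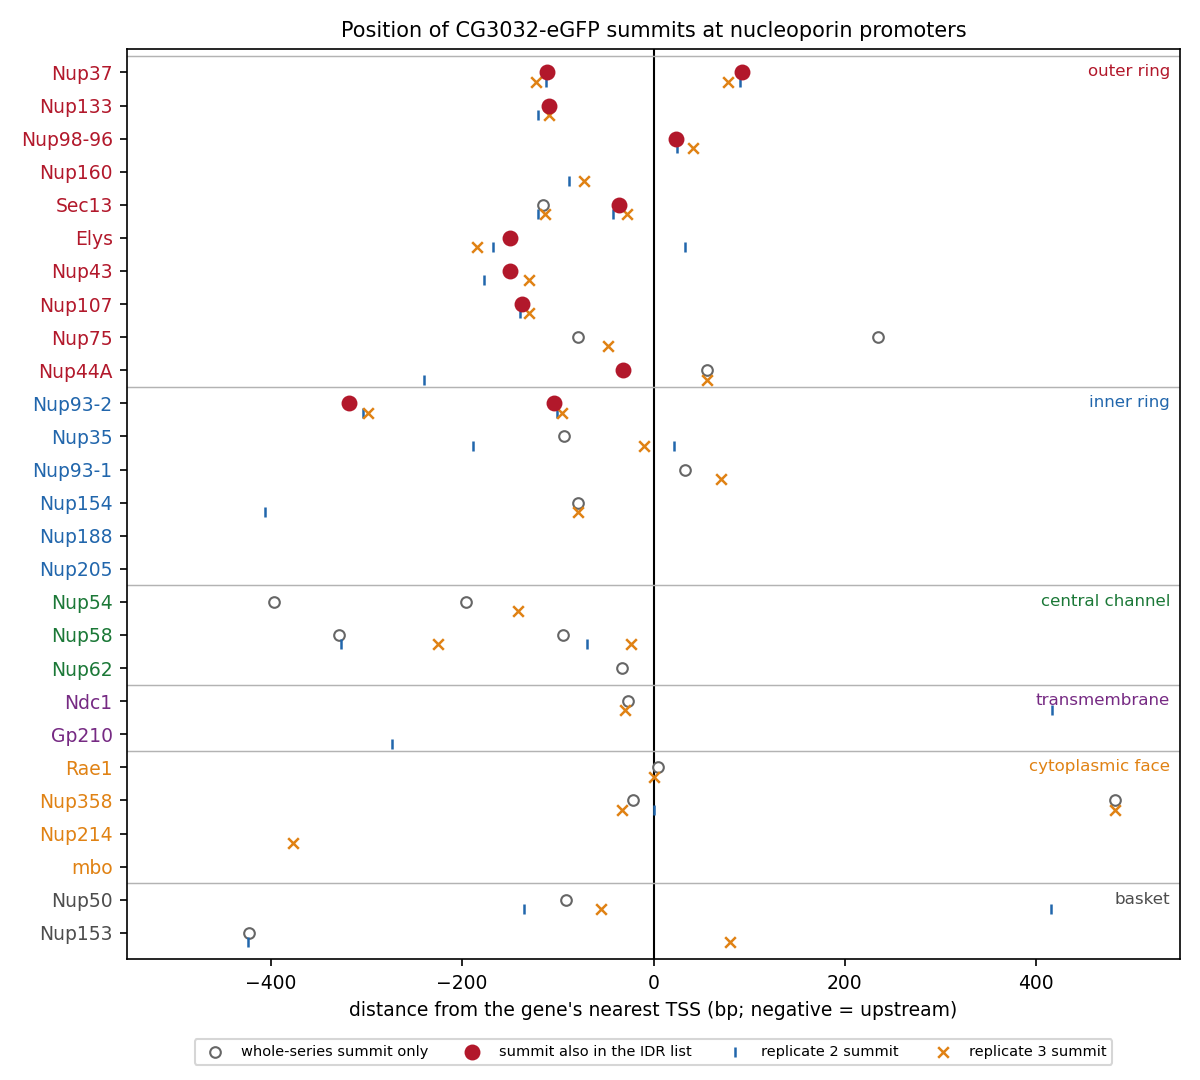
Distance of every promoter summit of the 27 nucleoporin genes from the nearest TSS of the gene (bp, negative is upstream), with IDR summits as filled circles, whole-series summits outside the IDR list as open circles, and replicate summits as ticks (2) and crosses (3). The strongest IDR summits lie between −150 and +24 bp with replicate summits close by, except at Nup44A, where the replicate 2 summit is 208 bp from the IDR summit.

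Most of these summits lay near the start sites of both a nucleoporin gene and a gene transcribed in the opposite direction. A TSS of another protein-coding gene lay within 500 bp of an IDR promoter summit at 8 of the 9 genes (88.9%), beside 57.3% of all 3763 genes with an IDR promoter summit. The Elys summit was shared with Ranbp21, which encodes an exportin, and lay nearer to the exportin's TSS (+114 bp). At Nup37 the strongest summit was nearer to the ribosomal protein gene RpS27 (−33 bp), and the noncoding gene sisRNA:CR46364 starts nearby (−125 bp), while the second summit was nearer to Nup37.

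Nup133 shared its summit with wfs1 (−118 bp), the fly gene for wolframin, and Nup98-96 with mbc (−168 bp), which encodes a Rac activator needed for myoblast fusion. Sec13 shared one with ATPsynCF6 (−178 bp), a subunit of the mitochondrial ATP synthase, and Nup44A with ACC (−113 bp), the acetyl-CoA carboxylase gene. At Nup43 the other gene was WRNexo (−326 bp), an exonuclease gene, and at Nup93-2 it was CG3817 (−263 bp), to which the second summit was nearer (−49 bp). Nup107 shared its summit with no gene. In these shared intervals the assay cannot assign a summit to 1 of both genes.

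Pairing was common in the family as a whole, bound or not. A head-to-head neighbour, with its TSS within 500 bp on the opposite strand, was annotated for 17 of 27 nucleoporin genes (63%) and for 27.3% of all protein-coding genes. Of the 17 paired nucleoporin genes 8 had an IDR promoter summit (47.1%, 23 to 72.2%), near the 50.9% of all paired genes. Of the 10 unpaired ones 1, Nup107, had one (10%, 0.253 to 44.5%), beside 17.9% of all unpaired genes. Among the paired genes, 7 of 9 in the outer ring (77.8%, 40 to 97.2%) and 1 of 8 elsewhere (12.5%, 0.316 to 52.7%) had one. Both intervals hold the 50.9% of all paired genes. Nup153, Nup188, Nup205, Nup50, Nup62, Gp210 and Nup214 were the paired genes outside the outer ring without one. All outer ring genes but Nup107 are paired, so these counts largely repeat those for the whole family. Whether pairing bears on the difference by place in the pore was not tested.

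The genes were also unevenly spread over the chromosome arms. On 3R, 6 of 10 nucleoporin genes had an IDR promoter summit, against 28.2% of all genes of that arm, and on 2R 1 of 9 had one, against 25.7%. Arm and place in the pore overlapped: 5 of the 10 genes on 3R but 2 of the 9 on 2R were outer ring genes. Within 3R all 5 outer ring genes had an IDR promoter summit and 1 of the 5 others did, and within 2R the counts were 1 of 2 and 0 of 7. These are the same genes split further, and a part played by the arm was not tested. On 2L the gene was Nup107, of 3, and on X it was Elys, of 5.

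The known promoter words were counted around the summits, on both strands and within 100 bp. The DNA replication-related element DRE (TATCGATA) and Motif 1 (GGTCACACT) were at 0 of 11 nucleoporin summits, beside 6.78% and 3.32% of all 3068 IDR promoter summits. The 0 of 11 allows a share of up to 27.3% (3 counts of 11, a rough bound). Within 200 bp, Motif 1 was at 3 of 11 (27.3%, beside 7.86%) and DRE still at 0 (beside 12.6%). The E-box CAGCTG was at 4 of 11 (36.4%, beside 8.7%), TATAAA at 6 of 11 (54.5%, beside 38.3%) and GAGAG at 2 of 11 (18.2%, beside 19.8%); no word contains another. Within 200 bp the E-box share stayed at 36.4% while that of all rose to 23.7%. The E-box lay at Nup37, Nup44A, Nup133 and Sec13, and its first base was 19, 2, 73 and 85 bp from the summit. At least 1 word was at 7 of 11 summits (63.6%), beside 61.7% of all. Within 50 bp the shares were 63.6% and 36.8%, and within 200 bp 90.9% and 86.8%, so how the family compares with all summits depended on the window. With 11 summits, each word rests on few sequences, and a match is a description of letters. Nup37 and Nup93-2 gave 2 of these summits each. Within 200 bp their windows overlap, so 1 word can be counted at both summits of a gene.

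In the promoters themselves, from 250 bp before to 50 bp after the start sites, the words were distributed differently. DRE was in 6 of 27 nucleoporin promoters (22.2%, beside 10.2% of all protein-coding genes): those of Gp210, Nup188, Nup50, Nup54, Nup58 and Nup75. An IDR promoter summit was found at 0 of these 6 genes, and at 43.8% of all genes with DRE in this window. The 0 of 6 allows a share of up to 50% (3 counts of 6), a rough bound at so few genes and not an exact interval. Motif 1 was in 7 promoters (25.9%, beside 6.77%): those of Nup43, Nup93-2, Nup98-96, Sec13, Nup160, Ndc1 and Nup62. Of these 7 the 4 genes named before Nup160 had an IDR promoter summit, beside 44.8% of all genes with Motif 1. E-box words were in 6 of 27 promoters (22.2%, beside 22.3% of all), 4 of them among the 10 outer ring genes (40%) and 2 among the 17 others (11.8%). TATAAA was in 18 promoters (66.7%, beside 51.3%) and GAGAG in 5 (18.5%, beside 36.3%). The higher share in the outer ring was not particular to the E-box. Motif 1 was at 40% of outer ring genes and 17.6% of the others, TATAAA at 80% and 58.8%, and GAGAG at 30% and 11.8%. DRE went the other way, at 10% and 29.4%. Nup44A has 3 annotated start sites and Elys, Nup37, Nup98-96 and Sec13 have 2, while outside the outer ring only Nup62 has more than 1. More DNA was thus searched per outer ring gene, and the shares were not adjusted for this.

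Genes for the rest of the transport machinery and for the nuclear envelope were set beside the nucleoporins. Of 49 such genes, which include the pore genes Aladin and Gle1, 21 had an IDR promoter summit (42.9%, 28.8 to 57.8%, against the 26.9% of all genes). The shares ran from 0 of 2 for Aladin and Gle1, through 4 of 14 mRNA export genes (28.6%), 8 of 17 transport receptors (47.1%) and 5 of 10 lamina and envelope genes (50%), to 4 of 6 genes of the Ran cycle (66.7%). Ran is the GTPase that gives transport its direction. Its activating protein RanGAP, which stands on the cytoplasmic side of the pore, had the strongest summit of its list (signal 1082, rank 746, −137 bp). The exchange factor Rcc1 (signal 295, rank 4189), Ran itself (215, rank 5806) and the Ran-binding protein RanBP3 (172, rank 7198) followed.

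Among the receptors the importin for splicing factors Tnpo-SR had the strongest summit (signal 1086, rank 741, −144 bp), above that of any nucleoporin gene. Tnpo, or transportin, followed with a signal of 798 (rank 1242), Kap-alpha3, an importin-alpha, with 611 (rank 1820), and msk, the importin-7 gene, with 454 (rank 2630). Ranbp21, named above with Elys, is also in this list. The mRNA export genes with a summit were e(y)2 (signal 596, rank 1891), sbr (202, rank 6176), Nxt1 (182, rank 6866) and Hel25E (168, rank 7392). Of these, sbr and Nxt1 encode the export receptor and its partner.

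Of the envelope genes, Msp300 (signal 841, rank 1150) and klar (294, rank 4198), which link nuclei to the cytoskeleton, and the LEM-domain gene Ote (226, rank 5538) had the strongest summits. The B-type lamin gene Lam had the same summit as Hel25E, at 2L:5542383. The remaining pore genes had none: Aladin (whole-series rank 9254, signal 131) and Gle1 (rank 22451, signal 43.3) were outside the IDR list, and Mgtor had no promoter summit in any list. With these 3 added, 9 of 30 pore genes had an IDR promoter summit (30%, 14.7 to 49.4%).

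**Figure D3:**
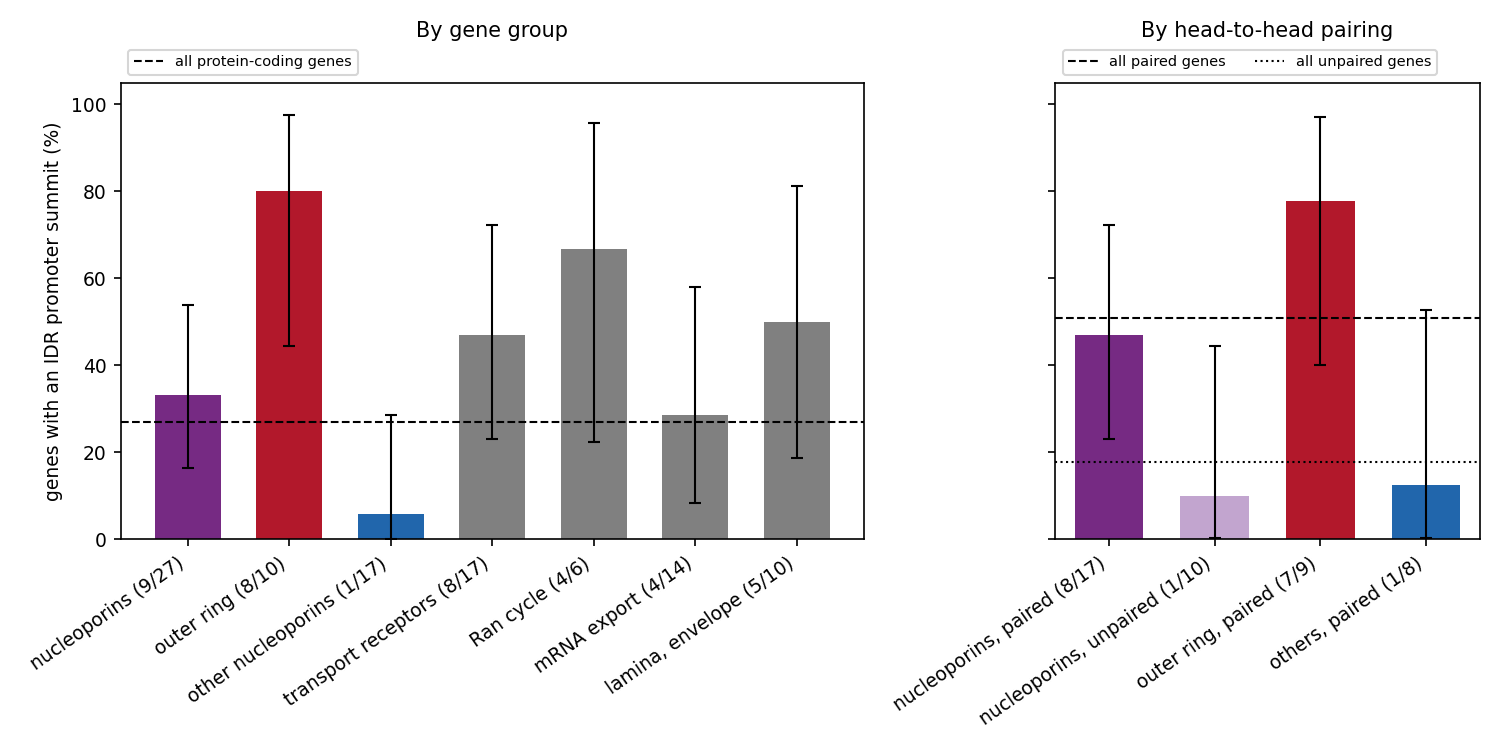
Share of genes with an IDR promoter summit (%, bars, with exact 95% intervals; genes with a summit and genes in all in brackets) by gene group, left, and for nucleoporin genes by head-to-head pairing, right. The outer ring reached 80% and the other nucleoporin genes 5.88%, on either side of the 26.9% of all protein-coding genes (dashed). The paired genes, a subset of the same genes, gave 77.8% and 12.5%, beside 50.9% of all paired genes, which lies within both intervals.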

How the data were processed

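The authors deposited 4 narrowPeak lists on dm6. Per the file headers, each replicate's list was called against a control alignment, the whole-series list was called on both replicates, and the 3 lists together gave the IDR list. The deposited signal is the authors' value per peak, and the deposited −log10 q-value stood at its ceiling for all 8170 IDR peaks, so peaks were ranked by signal. The control library itself was not used. Which aligner, caller and IDR threshold were applied is not given in the sources used here. The lists of 30000 peaks also keep summits with a low −log10 q-value, such as 0.0903 at Nup50 and 0.15 at Nup153 in replicate 2. A summit in these lists therefore need not stand above the control. A gene without a summit may still have weaker signal.

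Summit positions were taken as the peak start plus the deposited offset, made 1-based, and matched to 19275 TSSs of 13968 protein-coding genes (Ensembl release 115, annotation 6.54). A summit near several genes was counted for each. DNA came from the RefSeq copy of the assembly. Python 3.11.15, numpy 2.4.6, pandas 2.3.3, scipy 1.17.1 and matplotlib 3.10.9 were used, and the matching was tested on simulated data. DNA fragments ran from 200 to 800 bp, per the labels. Samples were in 1 group, so values are descriptions without tests.

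The members and lists were chosen with earlier results of these data known. All nucleoporin genes were named, with full values for those with an IDR promoter summit, the strongest whole-series summit for the others, up to 4 genes a pathway list by strongest summit, and genes sharing a summit. The receptor symbols arts and apolo had no match and were left out, and Ranbp9 was found as Ipo9. Alternatives were TSS windows of 200 and 1000 bp, gene 5′ ends alone, the nearest gene alone, the stronger 4085 IDR peaks, each replicate alone and motif windows of 50 and 200 bp.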

Additional observations from a re-analysis of the deposited data

How the results depend on the processing

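Of 54 alternative values, 47 stayed within 1.5 times the reported count or within the spread used, 7 moved and 0 changed sign; the values for the outer ring and for all genes were added after seeing the data. With the stronger 4085 IDR peaks, which are fewer by construction, IDR promoter summits were left at 5 nucleoporin genes, 4 of them in the outer ring, and at 9 of the transport and envelope genes, and at 14.8% of all genes. Counting a summit for its nearest gene alone moved the median distance of the strongest summits to −70 bp, and gave 8 nucleoporin genes (19.7% of all genes). Windows of 200 and 1000 bp gave 9 and 12 nucleoporin genes, 8 of them in the outer ring each time (19.5% and 30.6% of all genes). The share of summits with a promoter word rose to 90.9% within 200 bp, beside 86.8% of all IDR promoter summits, and stayed at 63.6% within 50 bp, beside 36.8%. Using the top peaks of 1 replicate, the count ran from 9 to 11 nucleoporin genes, from 8 to 9 in the outer ring and from 21 to 25 transport and envelope genes, and the median distance from −121 to −109 bp. The cause of these shifts was not tested where construction does not give it. No paired analysis was possible because there is 1 group.

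Subcomplexes of 2 to 10 genes give wide intervals. Depth is unknown, and weaker binding than the end of a list was not measured. The 2 replicates came from 1 line, and no untagged group was analysed here. At shared promoters a summit cannot be assigned to 1 gene.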
